A study of Mus musculus with 4 samples.

Results

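The circadian clock genes Arntl, Npas2, Clock, Cry1, Per2, Rora, Rorb and Hlf were examined for peaks of H3K36me2, the dimethylated form of lysine 36 of histone H3, in mouse bone marrow mesenchymal stem cells (MSCs). The 8 genes are 8 of 21883 protein-coding genes with a position in the gene table. Their peaks were all those called inside the gene or within 100 kb of either end: 14 of the 7699 peaks of the melatonin library and 9 of the 8361 peaks of the untreated library. The genes were chosen with these lists in view, so the presence of a peak at them is a description and was not tested. Of the 8 genes, 6 carried a peak inside the gene, while Clock and Per2 carried them only in the flanks.

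One chromatin immunoprecipitation (ChIP-seq) library came from MSCs exposed for 24 hours to melatonin at 1 µM and 1 from MSCs left untreated, and each was called against its own input library made without antibody. MSCs are stromal progenitors of bone, cartilage and fat cells, and melatonin is the pineal hormone that signals night. All cells were grown from mouse marrow in DMEM with serum, and the labels of these libraries give no strain, age, sex or genotype. The series' design text speaks of old donors and of several age groups without saying which these libraries are, so age may be a factor that is not given here. Conditions follow each sample's treatment label. The treatment protocol, however, is worded alike for every sample and names melatonin for those labelled untreated too, so every melatonin against untreated value rests on the treatment label. With 1 library per condition and no replicate, every difference below is between 2 libraries and has no p-value. In a bulk library, fewer cells carrying a mark and less mark per cell cannot be told apart, and a site without a called peak may still carry the mark below the calling threshold.

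The clock is a loop of transcription and repression that runs in most cells. BMAL1, the product of Arntl, pairs with CLOCK or its paralog NPAS2 and binds E-box sequences in target genes, among them the Per and Cry genes. PER and CRY proteins then repress that pair. A further loop acts on Arntl itself, which nuclear receptors of the ROR family activate and REV-ERB receptors repress, and PAR bZIP factors such as HLF drive outputs through D-box sequences. H3K36me2 is a mark of both gene bodies and intergenic chromatin, written by the NSD enzymes.

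None of the clock genes' listed start sites had a peak. The promoter table held 11 entries for 7 of the 8 genes (Per2 had no entry), and 0 of these 11 overlapped a peak in either library. Among all 32851 promoter entries, 68 (0.207%) overlapped a melatonin peak and 47 (0.143%) an untreated peak. The sequences at 3 of the starts are shown because the results below are measured from them: the Arntl start nearest to its melatonin peaks, the start of Cry1, the gene with the one peak called in both libraries, and the Rorb start, which of all 11 entries has the nearest peak. Each line gives the 250 bases before the start, read 5′ to 3′ on the strand of the gene from RefSeq, build GRCm38.p6, with any E-box in capitals.
Arntl, chr7:113207215-113207464, plus strand: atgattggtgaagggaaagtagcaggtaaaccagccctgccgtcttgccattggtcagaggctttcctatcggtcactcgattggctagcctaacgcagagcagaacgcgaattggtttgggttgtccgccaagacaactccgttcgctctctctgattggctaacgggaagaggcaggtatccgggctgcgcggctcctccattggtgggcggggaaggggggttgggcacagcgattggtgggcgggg
Cry1, chr10:85185055-85185304, minus strand: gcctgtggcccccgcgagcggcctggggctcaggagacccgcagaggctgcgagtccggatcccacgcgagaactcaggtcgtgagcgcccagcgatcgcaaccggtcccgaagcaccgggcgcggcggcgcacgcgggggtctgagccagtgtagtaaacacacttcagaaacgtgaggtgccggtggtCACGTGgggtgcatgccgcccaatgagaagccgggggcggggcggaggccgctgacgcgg
Rorb, chr19:19001118-19001367, minus strand: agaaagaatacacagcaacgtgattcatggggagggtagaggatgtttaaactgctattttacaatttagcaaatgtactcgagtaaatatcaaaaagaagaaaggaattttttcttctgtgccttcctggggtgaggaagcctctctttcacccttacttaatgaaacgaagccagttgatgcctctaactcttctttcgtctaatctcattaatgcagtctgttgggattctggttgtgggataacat
These windows were searched on both strands for an E-box (CACGTG), the core of a ROR element (AGGTCA) and a D-box (TTATGTAA). The Cry1 window held 1 E-box, which begins 60 bases before the start, and an E-box was present in 6.02% of all promoter entries over the same length. The Arntl and Rorb windows shown held none of the 3 motifs in these exact letters. Variants of the motifs and bases beyond the windows were not searched, so a site of another form or place is not excluded. Across the other entries of the clock genes the only further match was the ROR core, on the opposite strand 119 bases before 1 of the 3 Clock starts, where 14% of all entries had such a match and 0.819% had a D-box. No matches overlapped each other. The Rorb window had 39.2% G and C bases, the Arntl window 58.8% and the Cry1 window 71.2%, where the median entry had 52.4%.

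Arntl, whose protein BMAL1 is the common partner of the activating pair, had 2 melatonin peaks and 1 untreated peak, all on the upstream side. The gene spans 113178471 to 113314126 on chromosome 7 (136 kb, plus strand, gene ID 11865). One melatonin peak lay inside the annotated span, at 113189520 to 113190520, yet 16.9 kb upstream of the nearer of the 2 listed starts. It held 12.7 ChIP tags per 10000000 tags of the library (exact 95% Poisson interval 7.52 to 20.1) and 3.5 input tags, a fold over input of 4.47 in the authors' list. The other melatonin peak, at 113177043 to 113178043, ended 0.428 kb before the gene and held 13 tags per 10000000 over 2 input tags. Its fold was 8.04 (95% interval 1.93 to 71.4 from the counts of tags). Here and below, the fold divides scaled ChIP tags (16.1 for this peak), not tags per 10000000, by the input tags of the list. The untreated peak, at 113166143 to 113167143, held 12.9 tags per 10000000 over 2.7 scaled input tags, a fold of 6.23 (1.92 to 28.5). It was 9.9 kb from the nearer melatonin peak. All 3 peaks therefore lay upstream of both listed starts, at tag levels whose intervals overlapped, and the libraries differed in which window was called. Chromosome 7 held few peaks, 0.585 per Mb with melatonin and 0.557 per Mb without.

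Npas2, which encodes the paralog that can replace CLOCK, was the only 1 of the 8 genes whose window had several peaks in one library and none in the other. It spans 39193702 to 39363240 on chromosome 1 (170 kb, plus strand, gene ID 18143). The melatonin library had a peak inside the gene at 39223247 to 39224247, 29 kb downstream of the listed start, with 12.3 tags per 10000000 (7.25 to 19.6), 3.5 input tags and a fold of 4.35. A second melatonin peak lay 47.1 kb before the gene, at 39145569 to 39146569, with a fold of 4.47. The third lay 76.5 kb beyond the gene, at 39439744 to 39440744, inside the neighbouring gene Tbc1d8, with 14.1 tags per 10000000 and a fold of 5.8. The nearest untreated peak was 349 kb from the gene. That gives 3 melatonin peaks and 0 untreated peaks in 0.37 Mb, and the exact Poisson interval for 0 peaks reaches 9.98 per Mb, above the 8.12 per Mb of the melatonin library.

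Clock itself, the gene of BMAL1's usual partner, had no peak inside it in either library. Its span is 76209868 to 76305603 on chromosome 5 (95.7 kb, minus strand, gene ID 12753). The 1 untreated peak of its window, at 76114426 to 76115426, lay 94.4 kb beyond the 3′ end and held 14.8 tags per 10000000 over 3.1 scaled input tags, a fold of 6.25. No melatonin peak came closer than 168 kb. The peak of Clock was the member peak nearest to the 100 kb limit, and the nearest peaks just outside the limit were a melatonin peak 110 kb from Hlf and untreated peaks 119 kb from Hlf and 121 kb from Clock.

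Cry1, a repressor of the BMAL1 pair, had the only site called in both libraries. The gene spans 85131700 to 85185054 on chromosome 10 (53.4 kb, minus strand, gene ID 12952). Near its middle, the melatonin peak at 85159322 to 85160322 and the untreated peak at 85159961 to 85160961 shared 361 bp, or 36.1% of each peak. The levels there were 12.7 tags per 10000000 with melatonin (7.52 to 20.1) and 12.1 without (6.93 to 19.7). The intervals of these levels overlapped. Input was 3.5 tags with melatonin and 3.5 scaled tags without (4.5 before scaling), and the folds were 4.47 and 4.56. Under a rule that peaks must share at least 50% of their length, the pair would not count as shared. Over the whole lists, 6.12% of melatonin peaks and 5.6% of untreated peaks overlapped a peak of the other library by 1 bp or more. A second melatonin peak lay 84 kb upstream of the Cry1 start, at 85269021 to 85270021, with a fold of 5.36, and its nearest untreated peak was 108 kb away, the one inside Cry1.

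Per2, which encodes the partner of CRY1 in repression, had 1 peak per library, and they lay on opposite sides of the gene. Its span is 91415977 to 91459351 on chromosome 1 (43.4 kb, gene ID 18627). The melatonin peak, at 91468151 to 91469151, lay 8.8 kb past the high-coordinate end and held 13.8 tags per 10000000 over 3 input tags, a fold of 5.65. The untreated peak, at 91402564 to 91403564, lay 12.4 kb before the low-coordinate end and held 14.8 tags per 10000000 over 4.7 scaled input tags, a fold of 4.17. They were 64.6 kb apart, and each was the nearest peak of its library to the other.

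Rora, the gene of the nuclear receptor that activates Arntl, had the most peaks of the 8. Inside it, the called peaks of the 2 libraries lay in separate stretches. It is the longest of them, at 735 kb (68653404 to 69388246 on chromosome 9, plus strand, gene ID 19883). The 3 melatonin peaks inside it lay 135, 209 and 277 kb downstream of the start, which is 18.4%, 28.5% and 37.9% of the way along the gene. Their levels were 13.4, 12.7 and 17.3 tags per 10000000 over 4, 2.5 and 2.5 input tags, and the folds were 4.13, 6.26 and 8.52. The middle one also lay over the gene Gm31262. The third of these, at 68930969 to 68932235, had the highest fold of all 23 member peaks, with an interval of 2.38 to 54.5, and stood at the 90th percentile of its list by fold. The 2 untreated peaks lay near the other end, 618 and 665 kb from the start and 84.3% and 90.6% along the gene. The first, at 69271682 to 69274140, was the widest member peak at 2458 bp. It held 29.9 tags per 10000000 (21.3 to 40.8) over 8.2 scaled input tags, a fold of 4.82, and stood at the 99.2nd percentile of the untreated list by tags. The second, at 69318922 to 69319922, held 11.7 tags per 10000000, a fold of 4.41, and stood at the 2.42nd percentile by tags. Between the last melatonin peak and the first untreated peak inside Rora, 339 kb had no peak in either library. A pair of melatonin peaks followed beyond the gene, 56.2 and 58.9 kb past its end and 1.49 kb apart, with folds of 7.97 and 5.22, the first of them over the gene Gm18587.

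Rorb, the gene of a related receptor known mainly from brain and retina, had 2 untreated peaks inside the gene and 1 melatonin peak outside it. It spans 18930609 to 19111196 on chromosome 19 (181 kb, minus strand, gene ID 225998) and has 2 listed starts. The untreated peak at 19007891 to 19008891 lay inside the gene and 6.77 kb upstream of the inner start, the one whose sequence is shown above. It held 13.3 tags per 10000000 over 4.3 scaled input tags, a fold of 4.08 (1.5 to 13.3). The other untreated peak, at 18971155 to 18972415, lay 28.7 kb downstream of that start with 14.8 tags per 10000000 and a fold of 5. The melatonin peak, at 18877177 to 18878177, lay 52.4 kb past the 3′ end, inside the neighbouring channel gene Trpm6, and held 14.8 tags per 10000000 over 4.5 input tags, a fold of 4.06.

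Hlf, the PAR bZIP output factor, had 1 untreated peak and no melatonin peak. It spans 90336535 to 90390917 on chromosome 11 (54.4 kb, minus strand, gene ID 217082). The peak lay inside it at 90348630 to 90349630, 41.3 kb downstream of the start, with 12.1 tags per 10000000 (6.93 to 19.7) over 2.3 scaled input tags, a fold of 6.84 (1.96 to 36.6). The nearest melatonin peak was 110 kb from the gene.

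**Figure D1:**
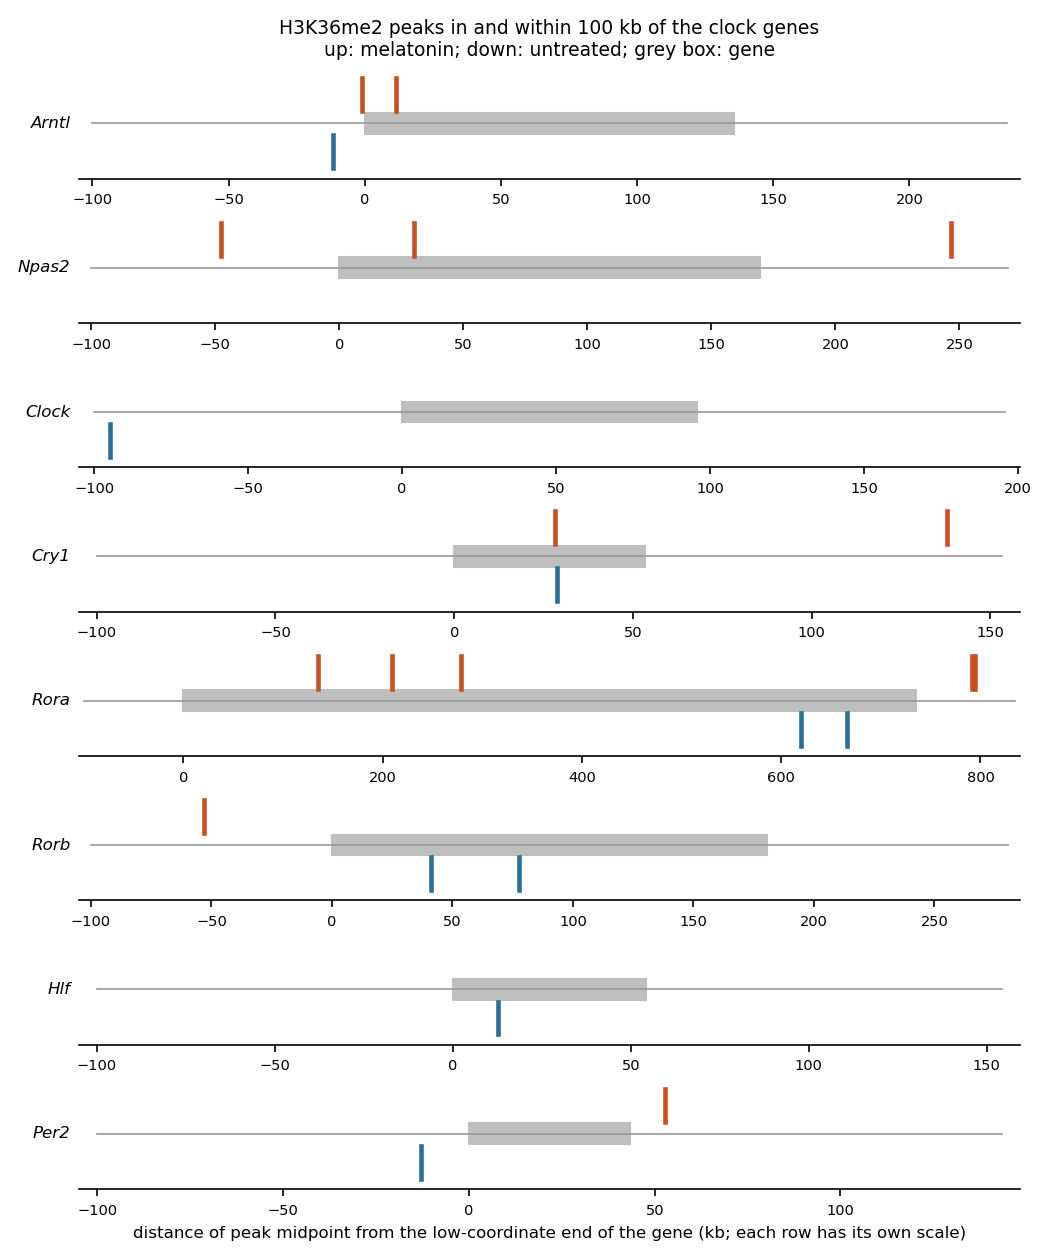
Position of each peak midpoint along the 8 genes, in kb from the low-coordinate end of the gene, with melatonin peaks drawn upward and untreated peaks downward and the gene as a grey box. Only in Cry1 do peaks of the 2 libraries meet, and in Rora the 3 melatonin and 2 untreated peaks inside the gene lie in different parts of it.

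Most of these peaks had the smallest width that the peak finder could call. The minimum width of 1000 bp was found at 12 of the 14 melatonin peaks and at 7 of the 9 untreated ones. Over the whole lists, 79.2% of melatonin and 79.6% of untreated peaks had that width. Their unscaled tags per kb ran from 17.5 to 21.7 with melatonin (median 18.8) and from 15.5 to 19.5 without (median 16.1). The file headers give tag thresholds of 18 and 17 for a window, and 1 of the 14 melatonin and 3 of the 9 untreated peaks held fewer tags than that, as did 21.1% and 21.3% of the whole lists. No source used here says how the threshold was applied to the tags that are listed. The median level was 13.2 tags per 10000000 with melatonin, against 13.4 over that whole list, and 13.3 without, against 13.6. The median folds were 5.29 and 4.82, against 5.11 and 4.87 over the lists. The 95% interval of the fold included 4, the fold the authors required, for 23 of the 23 peaks, with lower limits from 1.35 to 2.46 and upper limits from 10.6 to 71.4. All 23 intervals contained the range from 2.46 to 10.6, so the folds do not rank the clock genes at this depth. These intervals cover counting error only and do not allow for the fact that each peak had to pass the threshold to be listed.

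**Figure D2:**
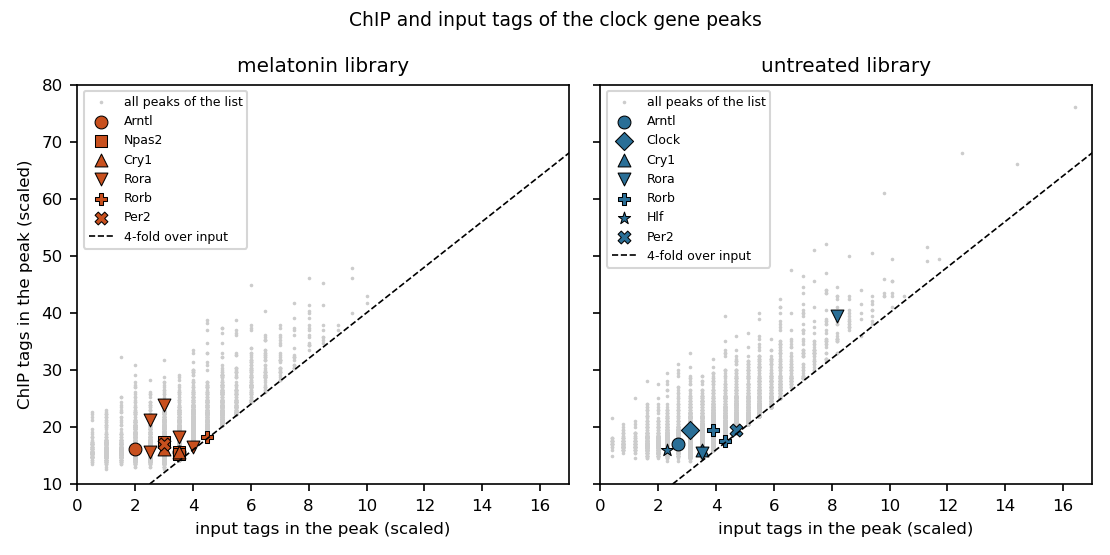
ChIP tags against input tags of each clock gene peak, both as deposited after scaling to the shallower library, over all peaks of the same list in grey, with the required fold of 4 as a dashed line. The clock peaks hold from 15.2 to 23.9 ChIP tags, apart from the wide untreated Rora peak with 39.5 ChIP and 8.2 input tags, and symbols with equal values cover each other.

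The median distance between peaks of the 2 libraries was longer at these 8 genes than over the lists, but shorter at the 18 other clock genes reported below. From a melatonin peak of these windows, the nearest untreated peak was at a median of 126 kb (range 0 to 488 kb, 14 peaks), against 24.5 kb for all melatonin peaks and 30.3 kb for those within 100 kb of any protein-coding gene. From an untreated peak of the windows, the nearest melatonin peak was at a median of 93 kb (0 to 170 kb, 9 peaks), against 25.6 and 29.8 kb. In the windows of the 18 other clock genes the medians were 16.3 kb from 20 melatonin peaks and 2.77 kb from 10 untreated peaks. Most of those peaks came from Bhlhe41, Bhlhe40 and Arntl2 on chromosome 6, with 7, 4 and 3 melatonin and 2, 3 and 2 untreated peaks. In all, 10 of the 18 genes had no peak. A peak of the other library stood within 100 kb of 5 of the 14 melatonin and 5 of the 9 untreated peaks, where the shares over the lists were 78.2% and 78.9%. Spacing differed between chromosomes too: the median from melatonin peaks was 91 kb on chromosome 7 (Arntl) and 16.3 kb on chromosome 10 (Cry1). Npas2 and Rora gave the longest distances, with 272, 443 and 488 kb from the Npas2 peaks and 125 to 408 kb from the melatonin peaks of Rora. Cry1 (0 kb) and Arntl (9.9 kb) gave the shortest. Peaks that share a gene share its surroundings and are not independent, and the difference from the lists was not tested.

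**Figure D3:**
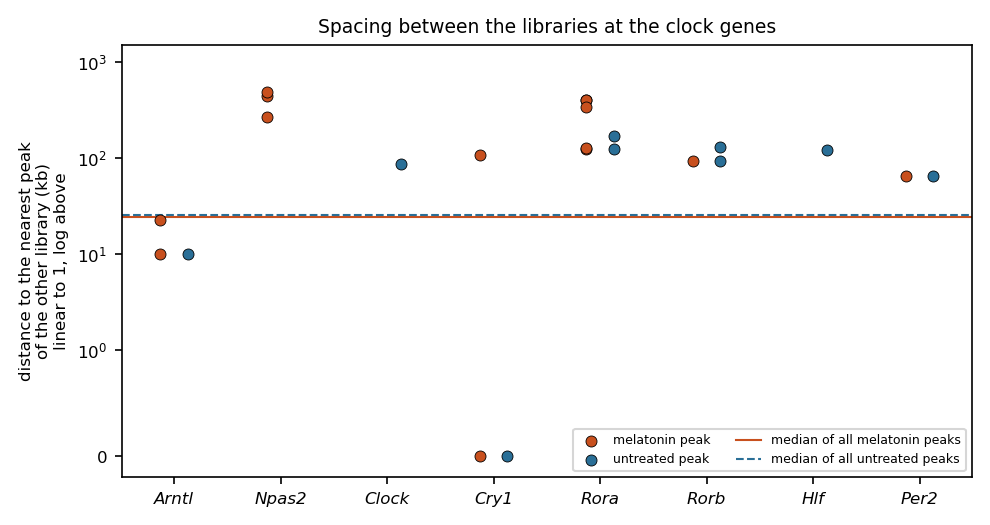
Distance from each clock gene peak to the nearest peak of the other library, in kb on an axis that is linear to 1 and logarithmic above, with the medians of all melatonin (24.5 kb) and all untreated peaks (25.6 kb) as lines. Only the points of Arntl and the overlapping pair in Cry1 fall below the lines.

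In number, the intervals of the clock windows included the densities of the whole lists. All 8 genes were chosen with these lists in view, and peaks of the same window are not independent, so the densities were not tested. The windows add up to 3.07 Mb. They held 4.56 melatonin peaks per Mb (exact 95% Poisson interval 2.5 to 7.66) and 2.93 untreated peaks per Mb (1.34 to 5.57). At the mean density of each gene's chromosome the same windows would hold 8.62 melatonin peaks, where 14 were found, and 9.06 untreated peaks, where 9 were found. The melatonin interval included the whole-list density of 2.93 per Mb, and the untreated interval included 3.18 per Mb. Inside the genes alone, each library had 6 peaks, or 4.09 per Mb (1.5 to 8.9). By gene, only the melatonin density at Arntl, 5.96 per Mb (0.722 to 21.5), had an interval that left out its chromosome's value, 0.585, and the gene was chosen for having peaks.

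**Figure D4:**
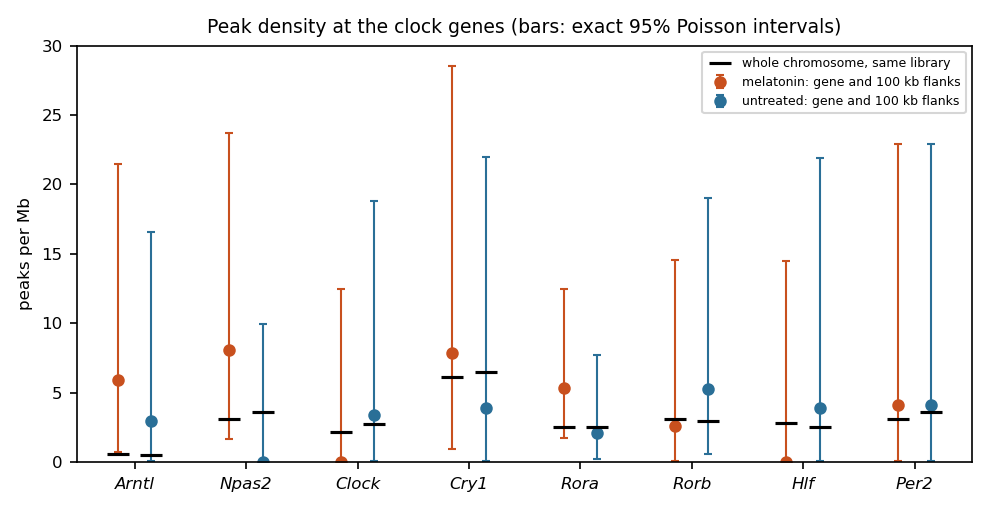
Peaks per Mb in each clock gene with its 100 kb flanks (points, with exact 95% Poisson intervals as bars) beside the density of the whole chromosome in the same library (black dashes). The intervals are wide, and all but that of melatonin at Arntl cover the chromosome's value.

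Of the 8 genes, 6 had a melatonin peak in the 100 kb window and 7 had an untreated peak, where 29.5% and 26.3% of all protein-coding genes did. Both libraries had a peak at 5 of them (Arntl, Cry1, Per2, Rora and Rorb), against 15.9% of all protein-coding genes. Among the 5469 genes as long as these (from 43.4 to 735 kb), the shares were 44.6%, 42.1% and 29.2%. Inside the gene body, 4 of 8 had a melatonin peak and 4 of 8 an untreated peak, against 5.47% and 5.2% of all genes and 16.9% and 16.7% of those of like length. Since the genes were selected from these lists, nothing is read from the higher shares. Arntl and Npas2, with 1 melatonin and 0 untreated peaks in the body, shared that pair of counts with 517 protein-coding genes (2.36%), of which the nearest in length on the same chromosome were Ptpre (148 kb) and Jph1 (156 kb). Hlf shared its pair of 0 and 1 with 448 genes, Cry1 its pair of 1 and 1 with 156 (Tmem26, 58.9 kb), and Rorb its pair of 0 and 2 with 82 (Sh3pxd2a, 204 kb). Rora shared 3 and 2 with 11 genes and with no named gene of its chromosome. This likeness is over 2 libraries and says nothing of a common function.

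Of the 18 other clock genes reported here, 8 had a melatonin peak within 100 kb and 5 an untreated peak, and all 5 of the latter also had a melatonin peak. The same background of 29.5% and 26.3% applies, and 10 of 18 had no peak in either library, against 60% of all protein-coding genes. Of all 5765 protein-coding genes with an untreated peak under this rule, 3476 also had a melatonin peak. Inside the gene body, 0 of the 18 had a peak in either library. Of all protein-coding genes, 5.47% had a melatonin peak and 5.2% an untreated peak in the body. Arntl2, the paralog of Arntl, had 3 melatonin and 2 untreated peaks in its flanks, the nearest 16.8 kb from the gene. Those past its high-coordinate end, the nearest among them, lay over the neighbouring gene Smco2. At the closest, peaks of the libraries near Arntl2 were 0.859 kb apart. Among single melatonin peaks, that of Nr1d1, which encodes a REV-ERB receptor, lay 31.3 kb from the gene with a fold of 4.1, and that of Cry2 lay 95 kb away inside Phf21a with a fold of 5.36. Csnk1e, a kinase gene for PER proteins, had one at 94.7 kb (fold 6.09). Fbxl21, the gene of an F-box protein, had a melatonin peak at 49.1 kb over Gm32759 and an untreated peak at 2.65 kb over Lect2. Nfil3, the repressor that binds the same D-boxes as HLF, had 2 peaks in each library. The nearest were 8.81 kb away with melatonin, over Gm40950, and 16.7 kb away without, over Gm33424. Per1, Per3, Nr1d2, Dbp, Tef, Ciart, Csnk1d, Timeless, Btrc and Fbxw11 had none, nor did the melatonin receptor genes Mtnr1a and Mtnr1b, whose nearest melatonin peaks were 190 and 1377 kb away.

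Of these 26 clock genes, the densest surroundings belonged to Bhlhe41 and Bhlhe40, which encode repressors that compete for E-boxes. Bhlhe41 (145858243 to 145865420 on chromosome 6) had 7 melatonin peaks and 2 untreated peaks, all past its high-coordinate end, from 4.49 to 55 kb away. The melatonin peaks ran from 12 to 19 tags per 10000000, with folds from 4.22 to 5.51. The stronger untreated peak, at 145883713 to 145885454, held 28 tags per 10000000 and a fold of 5.58, and lay 1.72 kb from a melatonin peak. The Bhlhe41 window held 33.8 melatonin peaks per Mb (13.6 to 69.6), against 2.99 on chromosome 6, and 9.65 untreated peaks per Mb (1.17 to 34.9), against 2.65. These intervals treat peaks as independent, but some neighbouring melatonin peaks there lay only 0.297 and 0.648 kb apart. The gene is named here for being the densest of the 26, and its density was not tested. Bhlhe40 (108660629 to 108666925 on the same chromosome) had 4 melatonin and 3 untreated peaks, none in the gene. Of these, 3 melatonin peaks and all 3 untreated peaks lay over the neighbouring gene 0610040F04Rik. One pair over that gene overlapped by 571 bp, 5.04 kb from the gene in the melatonin list (21.9 tags per 10000000, fold 7.7) and 4.14 kb in the untreated list (19.7 tags, fold 4.44). That pair, with Cry1, made 2 shared sites among the windows of these 26 clock genes.

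**Figure D5:**
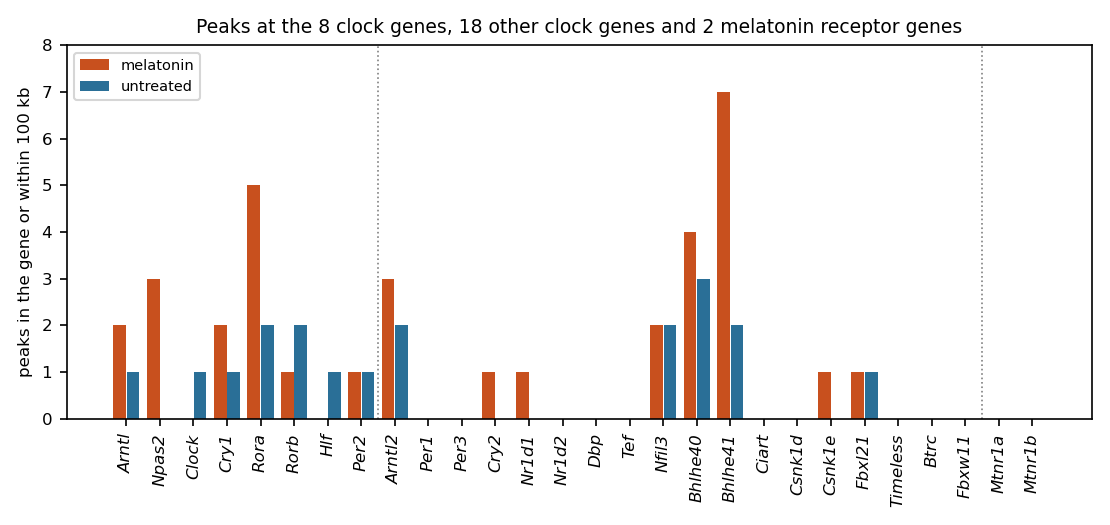
Number of melatonin and untreated peaks in each gene or within 100 kb, for the 8 genes described first (left of the first dotted line), the 18 other clock genes and the 2 melatonin receptor genes (right of the second). Bhlhe41 has the highest melatonin count, 7, and Bhlhe40 the highest untreated count, 3, while both receptor genes are at 0.

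As a check of the cell label, stromal and other markers were counted in the same lists with 2 kb flanks, although a peak list does not measure expression. Of 12 stromal genes 1 had a melatonin peak (Nt5e) and 2 an untreated peak (Lepr and Nt5e). Of 6 leukocyte genes 2 had a melatonin peak (Ptprc and Csf1r) and 0 an untreated peak. Of 6 endothelial genes 3 had a melatonin peak (Pecam1, Vwf and Emcn) and 1 an untreated peak (Emcn). Among all protein-coding genes, 5.93% had a melatonin peak and 5.71% an untreated peak under the same rule. Defining markers such as Pdgfra, Cxcl12, Adgre1 and Cdh5 had none in either library, so the lists do not settle which cells were present.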

How the data were processed

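Each deposited peak list came from HOMER findPeaks (histone style) run on 1 ChIP library against its own input, per the file headers, with no pooling. Each list is named after the input library, while its header names the ChIP and input libraries of the same labelled condition. Per the file headers, a window of 1000 bp had to pass a Poisson p of 0.001, and its ChIP tags had to exceed input by a fold of 4 at a p of 1e-04. The libraries held 14180076.5 (melatonin) and 13198427.5 (untreated) tags, with 1.12% and 1.24% of them in peaks. Per the submitters' processing notes, BWA 0.7.13, Picard 1.126 and MACS2 2.1.0 were used. No source used here gives a HOMER version.

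Per the file headers, normalized tag counts are a signal in tags per 10000000 library tags. The deposited ChIP and input tags are a signal scaled to the shallower library of the pair: melatonin ChIP tags were multiplied by 0.87 and untreated input tags by 0.78, as recovered from their steps of 0.5 tags. The authors' fold is a ratio of these tags and their p-value is unadjusted. The deposited score and clonal ratio were not used.

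The processing notes name mm39, but peaks reach 159805034 on chromosome 3 and 145328623 on chromosome 7, beyond both chromosomes' ends in that build. Peak midpoints fell least often inside protein-coding genes of the RefSeq GRCm38.p6 table at a shift of 0 kb in each list, and within 20 kb of it on 19 of 20 chromosomes. Chromosome 7, with Arntl and only 166 peaks, was the exception (34.9% at 0 kb, minimum 34.3% at 420 kb). Coordinates were read as GRCm38.

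Start sites and strands are those of the RefSeq promoter table. Overlap meant 1 bp or more, and distances run between nearest edges. Intervals are exact 95% Poisson (tags, peak numbers) or binomial (folds) intervals on unscaled tags, which are not independent molecules. Python 3.11.15, pandas 2.3.3 and scipy 1.17.1 were used, and the counting was tested on simulated peaks. Named were the 8 genes, any of 18 other clock genes and 2 receptor genes with a peak within 100 kb, genes under a peak, and the gene of like peak counts and length on the same chromosome. For some genes that this rule names, the result is not reported here. Members and lists were chosen with earlier results of these data known. The bases under the peaks are not shown, since a genome sequence was not used here.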

Additional observations from a re-analysis of the deposited data

How the results depend on the processing

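A p over input of 1e-05 or less removed 0 of the 23 clock peaks. That cut also kept 7445 of all 7699 melatonin peaks and 8350 of all 8361 untreated peaks. Measuring from midpoints moved the median spacing only to 127 kb (from 126) and 94.1 kb (from 93). Other settings changed the counts because they took fewer peaks or less sequence. The 14 melatonin peaks became 6 in gene bodies alone, 7 with 2 kb flanks, 8 with 10 kb, 9 with 50 kb, 4 at a fold of 6 or more, and 8 when each list was cut to its 3849 lowest p-values. The 9 untreated peaks became 6 in gene bodies alone, 6 with 2 kb flanks, 6 with 10 kb and 8 with 50 kb. They became 3 at that fold and 4 among the 3849. Over the whole lists, 2317 of 7699 melatonin and 2017 of 8361 untreated peaks had a fold of 6 or more. Genes with a melatonin peak went from 6 to 4 in bodies alone, 4 with 2 kb, 5 with 10 kb and 5 with 50 kb. They went to 2 at a fold of 6 and 5 among the 3849. Genes with an untreated peak went from 7 to 4 in bodies alone, 4 with 2 kb, 4 with 10 kb and 6 with 50 kb. They went to 3 at a fold of 6 and 4 among the 3849. The background of protein-coding genes with a melatonin peak (29.5%) became 5.47%, 5.93%, 8.79% and 19.9% for bodies, 2 kb, 10 kb and 50 kb. It was 13% at a fold of 6 and 17.9% among the 3849. For untreated peaks (26.3%) it became 5.2%, 5.71%, 8.26%, 18%, 9.73% and 15.2% in the same order. With a shared length of at least 50% of both peaks, 0 melatonin and 0 untreated peaks were shared. Peak density at a fold of 6 was 1.3 per Mb with melatonin (from 4.56) and 0.978 without (from 2.93). In no gene did the sign of melatonin minus untreated peaks turn under these settings. Only Rora and Hlf, however, kept a difference under all of them. At a fold of 6 or more the difference was 0 in Arntl, Npas2, Cry1 and Rorb. In Clock and Cry1 it was 0 in bodies alone and with 2, 10 and 50 kb flanks. Among the 3849 it was 0 in Arntl and Rorb. Per2, with 1 peak in each library, had a melatonin peak alone with 10 kb flanks and among the 3849. No paired analysis was possible because each condition had 1 library. With 15.5 to 39.5 ChIP tags and 2 to 10.5 input tags behind each peak, depth limits every fold given.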

Other observations

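The low tag counts leave few possible values, so clock gene peaks far apart in the genome carry the same statistics. In the authors' list, 4 melatonin peaks (1 at Arntl, 2 at Npas2 and 1 in Cry1) had the same p over input of 4.26e-06, as had 382 of the 7699 peaks of that list (4.96%). The whole melatonin list had 225 distinct p-values and the untreated list 311.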
